A study of Harpegnathos saltator with 19 samples.

Results

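Genes of the mitochondrial respiratory chain and of ATP synthase were followed across the central brains of Harpegnathos saltator, an ant in which workers can turn into egg layers. The members are the rows of the expression table whose RefSeq symbol begins with ND-, COX, UQCR, Sdh or ATPsyn and whose value reached 1 FPKM in at least 5 libraries. FPKM stands for fragments counted on a gene, divided by gene length and library depth. There were 48 such genes among 14001 rows, of which 9381 met the same minimum and were tested. All 48 symbols with these prefixes met it, in all 19 libraries, so none lies just outside the rule. By symbol, 28 belong to complex I (ND-), 4 to complex II (Sdh), 5 to complex III (UQCR), 3 to complex IV (COX) and 8 to ATP synthase (ATPsyn). The rule is narrower than the pathway: Cox10, Cox11, Cox17, Ndufb2 and NdufV3 are spelled otherwise and are not counted as members, and subunits encoded by the mitochondrial genome were not analysed here.

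Each library was made from the central brain of 1 worker, dissected 10 h after an injection into the head. A first group of 7 ants received 100 ng of 20-hydroxyecdysone (20E, the moulting hormone of insects), another 7 received 100 ng of juvenile hormone III (JH3), and 5 received the DMSO control. No strain, genotype or age is stated in plain words in the labels, and they describe both hormones as dissolved in glucose solution without giving a volume or dose for the control. The descriptions of the samples also carry a run label: 200212 for replicates 4 to 7 of 20E and of JH3 and replicates 4 and 5 of DMSO, and 190514 for replicates 1 to 3 of each group.

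In the inner mitochondrial membrane, complex I takes electrons from NADH and complex II takes them from succinate. Both pass them through ubiquinone to complex III, cytochrome c carries them on to complex IV, and complex IV gives them to oxygen. Complexes I, III and IV pump protons, and ATP synthase, also called complex V, uses the resulting gradient to make ATP. Neurons draw much of their ATP from this pathway. Each complex is a fixed assembly of many subunits, most of them encoded in the nucleus, and the roles given here are those of the homologous fly or mammalian proteins.

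Whole reads could be read back from the FPKM values, and the libraries then held 13.03 to 25.5 M reads assigned to genes (median 18.25 M). The members took 0.367% to 0.812% of these reads, and the thinnest member in any library, the complex II assembly factor Sdhaf3, still held 38 reads. The neuronal genes nSyb and Syt1 and the glial gene repo were present in every library, with at least 130, 99.1 and 21.8 FPKM. Of the full marker lists, which include these genes, 16 of 20 neuronal, 8 of 13 glial and 10 of 21 muscle genes could be tested. In bulk tissue, fewer cells of a type and less RNA per cell cannot be told apart. Libraries that stand apart are 20E replicate 6 and JH3 replicate 1, which limma's library weights put at 0.142 and 0.207, against 0.395 to 2.668 for the others, so results are also given without both.

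The median level of the members was above that of all tested genes. Their mean over 19 libraries ran from 5.04 FPKM for ND-30 to 190 FPKM for ATPsynC, with a median over members of 25.5 FPKM, against 7.48 FPKM over all tested genes. ND-30, ND-B14, ND-23, ND-ASHI and Sdhaf3 lay below that value. ATP synthase genes were the highest by complex, with a median of 84.4 FPKM. Complexes III, IV, I and II followed with medians of 29.1, 25.7, 18.7 and 18.0 FPKM.

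**Figure D1:**
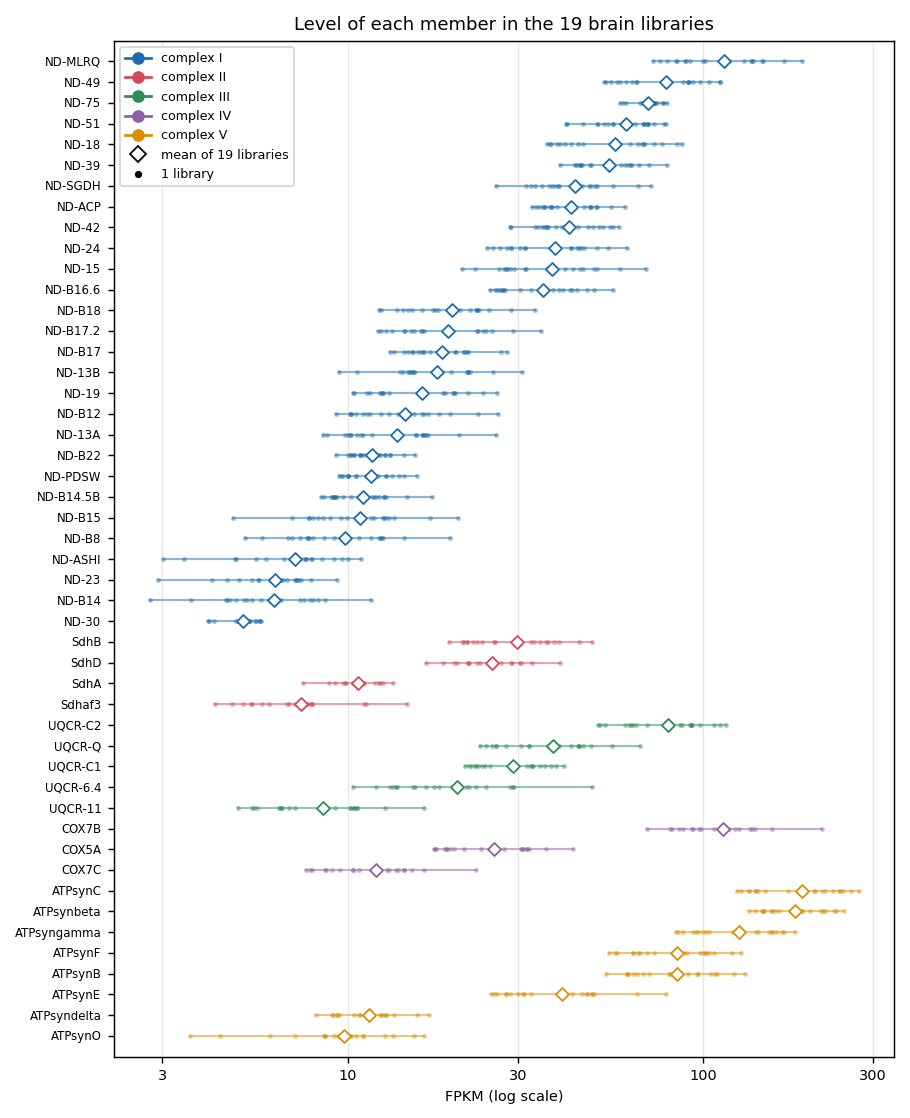
Level of the 48 members, 1 row a gene, in FPKM on a log scale. Small points are the 19 libraries, lines their range and diamonds their mean, coloured by complex. The means run from 9.76 to 190 FPKM within ATP synthase alone, while the highest library of any 1 member is 1.36 to 4.73 times its lowest.

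Subunits of 1 complex did not sit at 1 level. Within ATP synthase, ATPsynC (LOC105186885), which forms the rotating ring in the membrane, averaged 190 FPKM, the catalytic subunit ATPsynbeta 181 FPKM and the central stalk subunit ATPsyngamma 126 FPKM. ATPsyndelta, at 11.5 FPKM, and ATPsynO, the peripheral stalk subunit that confers oligomycin sensitivity, at 9.76 FPKM, were the lowest of the 8. In complex I, ND-MLRQ, whose mammalian homologue has also been placed in complex IV, averaged 114 FPKM. The core subunits ND-49 and ND-75 averaged 78.2 and 70.0 FPKM, while the core subunits ND-23 and ND-30 averaged 6.23 and 5.04 FPKM.

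Levels differed within the remaining complexes too. In complex II the iron-sulphur subunit SdhB was highest, at 19.2 to 48.6 FPKM over the libraries. The membrane anchor SdhD averaged 25.3 FPKM, against 10.7 FPKM for the flavoprotein SdhA and 7.38 FPKM for Sdhaf3. In complex III the core protein gene UQCR-C2 was highest at 79.6 FPKM and the small subunit gene UQCR-11 lowest at 8.49 FPKM. In complex IV the small subunit gene COX7B averaged 114 FPKM and COX7C 11.9 FPKM.

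These orders depend on the length each gene was counted over. The lengths read back from the FPKM values ran from 545 bases for Sdhaf3 to 12984 bases for ND-30, with a median of 2040 bases for members and 4256 bases for all tested genes. COX7C encodes a short protein but was counted over 10163 bases. It ranked 34 of 48 in FPKM and 13 of 48 in reads. ATPsynbeta had the most reads, 16494 in the mean library.

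No member passed the threshold, an adjusted p of 0.05, in any hormone comparison. In 20E with DMSO, limma with Benjamini-Hochberg adjustment over all tested genes called 0 of 48 members, where it called 3.34% of all tested genes. No member had an unadjusted p under 0.05 either, against 9.04% of all genes. In JH3 with DMSO it called 0 of 48, against 0.927% of all genes, and 2 members had an unadjusted p under 0.05, UQCR-6.4 and ND-B8, against 8.29% of all genes. In 20E with JH3 it called 0 of 48, against 5.34% of all genes, and 0 members had an unadjusted p under 0.05, against 13.9%. A second test, voom on the reads read back, also called 0 members in each of the 3 comparisons, with 0, 2 and 0 at an unadjusted p under 0.05. The libraries of the compared groups overlapped for all 48 members in each comparison. Over all tested genes, 2.03%, 1.13% and 2.15% had groups that did not overlap. Each group holds libraries of both run labels, and for 23 members the runs did not overlap. Overlap of the groups therefore cannot show that a hormone difference is absent.

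The intervals show which sizes of change these libraries leave room for. The 95% interval of the log2 fold change lay inside a 2-fold change in either direction for all 48 members in each comparison. It lay inside a 1.5-fold change for 46 members in 20E with DMSO, for 40 in JH3 with DMSO and for 45 in 20E with JH3. The widest upper bounds belonged to ATPsynO, at 0.70 in 20E with DMSO and 0.94 in JH3 with DMSO. At the other end, ATPsynO reached -0.74 in 20E with JH3.

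**Figure D2:**
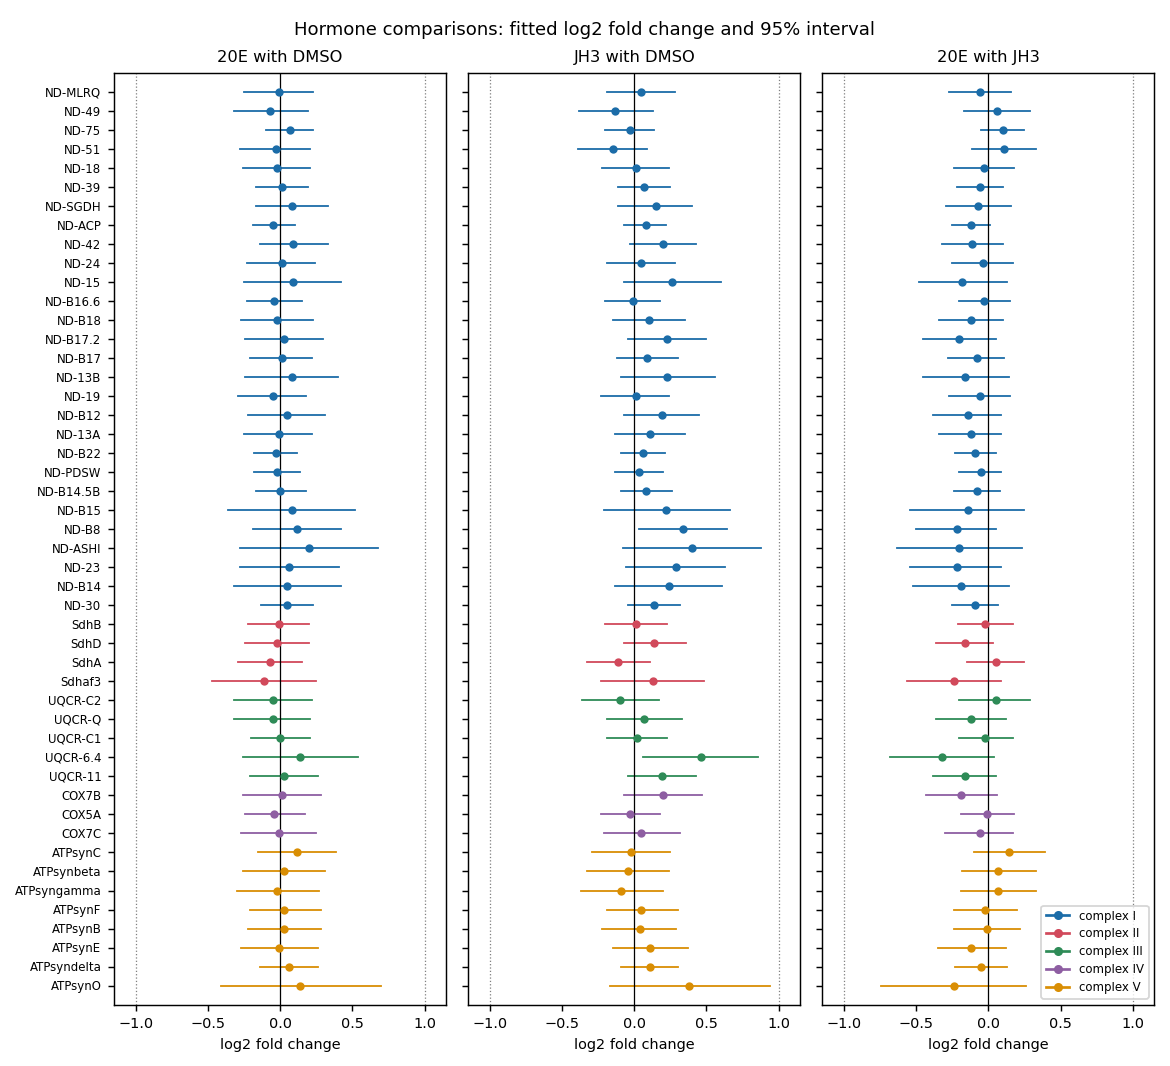
Fitted log2 fold change of the 48 members (points) with its 95% interval (lines) in the 3 hormone comparisons (20E with DMSO left, 20E with JH3 right), 1 row a gene, coloured by complex. Dotted lines mark a 2-fold change, and no interval crosses one in any of the 3 comparisons.

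The median over members was also close to that of all genes. On the log2 scale it was 0.01 for 20E with DMSO, 0.08 for JH3 with DMSO and -0.08 for 20E with JH3, against -0.01, 0.00 and -0.02 over all tested genes. The values of JH3 with DMSO and of 20E with JH3 share the JH3 libraries. In JH3 with DMSO 38 of 48 members lay above 0 and 10 below, where 49.2% of all tested genes lay below. In 20E with JH3 40 members lay below 0, against 54.2% of all tested genes. Tested genes under 2 kb had medians of 0.09 and -0.10 in these 2 comparisons. With the trend over gene length removed from each library, the members' medians were 0.00 and -0.02, with 24 and 30 members below 0. Without JH3 replicate 1 the median in JH3 with DMSO was 0.01 and that in 20E with JH3 was -0.02. The cause was not tested. By complex the medians in 20E with DMSO ran from -0.04 (complex II) to 0.03 (complex V), and in JH3 with DMSO from 0.04 (complex V) to 0.09 (complex I).

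UQCR-6.4 (LOC105186713), a small subunit of complex III, had the largest fitted difference between JH3 and DMSO. It had 15.2 to 48.5 FPKM in JH3 brains, with a median of 18.0, against 24.4, 13.1, 29.1, 13.7 and 12.0 FPKM in DMSO brains. In 20E brains it had 10.3 to 29.2 FPKM, with a median of 17.5. The groups overlapped, and the 48.5 FPKM belonged to JH3 replicate 1, well above the next JH3 brain at 28.5 FPKM. The log2 fold change of JH3 with DMSO was 0.46 ± 0.19 (SE, limma adjusted p = 0.508). For 20E with DMSO it was 0.14 ± 0.19 and for 20E with JH3 -0.32 ± 0.17 (adjusted p = 0.999 and 0.432).

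ND-B8 (LOC105181784), an accessory subunit of complex I, was the other member with an unadjusted p under 0.05 in JH3 with DMSO (0.0312). It had 7.32 to 19.4 FPKM in JH3 brains, with a median of 9.14, against 11.6, 7.96, 14.4, 6.95 and 5.73 FPKM in DMSO brains. The highest value was again that of JH3 replicate 1, and the rest of the JH3 brains lay within the DMSO range. Its log2 fold change was 0.34 ± 0.14 in JH3 with DMSO (limma adjusted p = 0.532) and 0.12 ± 0.14 in 20E with DMSO (adjusted p = 0.999).

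ND-ASHI (LOC105191042), an accessory subunit of complex I, had the largest fitted difference between 20E and DMSO. It had 3.01 to 9.59 FPKM in 20E brains, with a median of 7.52, and 4.83 to 10.9 FPKM in JH3 brains, with a median of 7.84. In DMSO brains it had 7.62, 3.45, 10.0, 5.88 and 4.79 FPKM. A single brain of each of 20E and DMSO, replicate 6 and replicate 2, held about the same low level. The log2 fold change was 0.20 ± 0.23 in 20E with DMSO and 0.40 ± 0.23 in JH3 with DMSO (limma adjusted p = 0.999 and 0.648).

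ATPsynO (LOC105183055) varied most of all members. Its SD left after fitting group and run (log2 scale) was 0.48, against a median of 0.20 for members and 0.22 for all tested genes. ATPsynO had 3.58 to 13.4 FPKM in 20E brains, with a median of 9.15. In JH3 brains it had 7.08 to 16.3 FPKM, with a median of 10.1. In DMSO brains it had 10.2, 4.36, 15.3, 9.44 and 6.04 FPKM, so that the DMSO group alone spanned nearly the whole range of the other groups. Its log2 fold change was 0.38 ± 0.26 in JH3 with DMSO and 0.14 ± 0.26 in 20E with DMSO (limma adjusted p = 0.674 and 0.999). The others among the 5 largest differences of a comparison were ATPsynC in 20E with DMSO (0.12 ± 0.13), ND-23 in JH3 with DMSO (0.29 ± 0.17) and in 20E with JH3 (-0.22 ± 0.15), and Sdhaf3 in 20E with JH3 (-0.24 ± 0.15).

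The sign of a member's hormone difference often changed between the run labels in 20E with DMSO and in 20E with JH3. Within run 200212 alone the median over members was 0.11 in 20E with DMSO, 0.13 in JH3 with DMSO and -0.02 in 20E with JH3. Within run 190514 alone it was -0.10, 0.06 and -0.18. The sign was the same in both runs for 11 of 48 members in 20E with DMSO. It was the same for 38 in JH3 with DMSO and for 25 in 20E with JH3. Signs were taken from rounded values, a value of 0 did not count as the same, and the share over all tested genes was not counted. Run 200212 holds only 2 DMSO libraries. A different hormone effect in the 2 runs was itself tested by limma: 0 members passed in each comparison, with 0 members at an unadjusted p under 0.05, where 0.00% of all tested genes passed and 2.21%, 4.80% and 2.64% had such a p.

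The run label separated the members. In run 200212, 43 of 48 members were lower than in run 190514 and 0 were higher by limma with adjustment over all tested genes, where 25.3% of all tested genes were lower and 25.6% higher. The fitted log2 fold change was below 0 for 47 of 48 members, with a median of -0.63 against 0.00 over all tested genes. Summed over the members, run 200212 had 1610 ± 177 FPKM (SD, n = 10, 1441 to 2022) and run 190514 had 2430 ± 270 FPKM (n = 9, 2073 to 2972), and the runs did not overlap. Scaled to total reads instead, 44 of 48 members were lower with a median of -0.75, while all tested genes had 1681 higher and 2970 lower and a median of -0.10. The same split was present in each group. The sums in run 200212 and run 190514 were 1680 ± 259 and 2290 ± 186 FPKM for 20E (n = 4 and 3), 1590 ± 98.8 and 2530 ± 387 FPKM for JH3 (n = 4 and 3), and 1500 ± 78.5 and 2470 ± 242 FPKM for DMSO (n = 2 and 3).

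**Figure D3:**
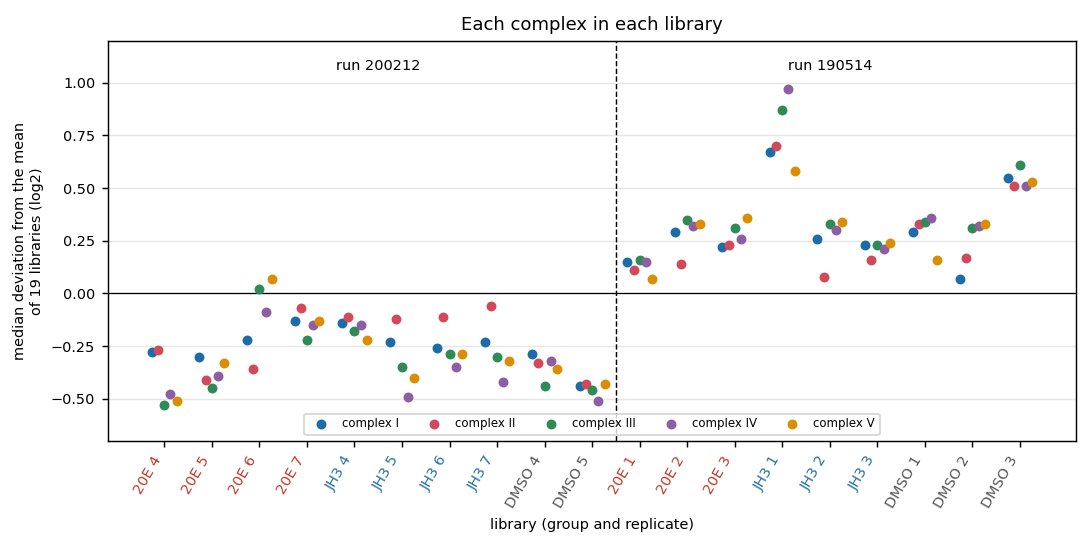
Median deviation of each complex from its mean of 19 libraries, on the log2 scale, in each library, with run 200212 left of the dashed line and run 190514 right of it, and 20E, JH3 and DMSO libraries in that order within a run. Points are coloured by complex, and with the exception of complexes III and V in 20E replicate 6 all lie below 0 in run 200212 and above 0 in run 190514. Values are on the deposited FPKM scale, which is raised in 20E replicate 6.

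All 5 complexes shared the lower level in run 200212. In complex I 25 of 28 members were lower, with a median log2 fold change of -0.61, and in complex II 3 of 4, with a median of -0.54. In complex III all 5 were lower, with a median of -0.74, and in complex IV all 3, with a median of -0.71. In ATP synthase 7 of 8 were lower, with a median of -0.64. For 23 members every library of run 200212 lay below every library of run 190514, which held for 6.30% of all tested genes. For 0 members did run 200212 lie wholly above run 190514, against 5.27% of all tested genes. These were 13 of complex I, 2 of complex II, 2 of complex III, the 3 of complex IV and 3 of ATP synthase.

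ATPsynE (LOC105191708), a small membrane subunit of ATP synthase, showed the largest fall. It had 25.3 to 32.8 FPKM in run 200212, with a median of 28.2, against 42.8 to 78.7 FPKM in run 190514, with a median of 48.5. The runs did not overlap, and the log2 fold change was -0.85 ± 0.10 (limma adjusted p = 5.13e-06). UQCR-11 had 4.90 to 7.08 FPKM in run 200212, with a median of 6.40, against 9.16 to 16.4 FPKM in run 190514, with a median of 10.4, a log2 fold change of -0.83 ± 0.09. UQCR-6.4 fell by the same 0.83 but with a larger error of 0.15, and its runs overlapped, at 10.3 to 18.0 FPKM in run 200212 and 13.1 to 48.5 FPKM in run 190514. ND-18 and ND-13A, accessory subunits in the arm of complex I that oxidises NADH, followed at -0.79 ± 0.09 and -0.77 ± 0.09. COX5A, the complex IV subunit counted over 5601 bases, had 17.4 to 23.6 FPKM in run 200212, against 27.5 to 42.9 FPKM in run 190514.

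The other 5 members did not pass. SdhA (LOC105185258), which oxidises succinate, was the single member with a value above 0. It had 9.68 to 13.4 FPKM in run 200212, with a median of 10.8, against 7.48 to 12.3 FPKM in run 190514, with a median of 9.85 (log2 fold change 0.17 ± 0.08, limma adjusted p = 0.0891). ND-75 (LOC105191934), the largest subunit of complex I, had 58.2 to 79.1 FPKM in run 200212 and 59.2 to 77.0 FPKM in run 190514 (-0.05 ± 0.06, adjusted p = 0.511). ND-30 (LOC105183910), a core subunit of complex I, had 4.07 to 5.65 FPKM in run 200212 and 4.03 to 5.70 FPKM in run 190514 (-0.05 ± 0.07, adjusted p = 0.533). ND-ASHI and ATPsynO had log2 fold changes of -0.43 ± 0.18 and -0.46 ± 0.21 (adjusted p = 0.0514 and 0.0755), where their spread between libraries was the widest of the members. The smallest falls that passed were those of ND-B22 (-0.30 ± 0.06) and ND-PDSW (-0.34 ± 0.06), accessory subunits of complex I whose spread was among the narrowest. The narrowest was that of ND-ACP, the acyl carrier protein of complex I, with an SD of 0.10 left after fitting group and run.

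Within complex I the catalytic core and the accessory subunits can be set side by side, a split made after the values had been seen and given without a test. Of the 6 core members, 4 were lower in run 200212, with a median log2 fold change of -0.39: ND-24 (-0.69), ND-49 (-0.62), ND-51 (-0.42) and ND-23 (-0.37). Of the 22 accessory members, 21 were lower, with a median of -0.64. The core members were counted over a median of 4296 bases and the accessory members over 1694 bases. Over all tested genes 25.3% were lower, with 46.1% of those under 2 kb and 12.7% of those of 4 kb or more.

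Gene length moved with the run difference across the whole table. Spearman's rho between length and the run log2 fold change was 0.54 over 9380 tested genes and 0.47 over the 48 members, as a description over genes that share the same libraries. Among all tested genes, 46.1% of those under 2 kb, 36.5% of those from 2 to 4 kb and 12.7% of those of 4 kb or more were lower in run 200212. Among the members the counts were 23 of 23, 10 of 10 and 10 of 15. When the trend with length was removed from each library, 46 of 48 members were lower and 0 higher, against 23.3% of all tested genes lower, and the median was -0.47 against -0.01. Under that setting the long genes COX7C and COX5A were lowest, at -1.01 and -0.84, ND-30 passed (-0.39, limma adjusted p = 0.0107), and ND-75 and SdhA did not (-0.10 and -0.04). What was done differently between the runs is not given in the sources used here.

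**Figure D4:**
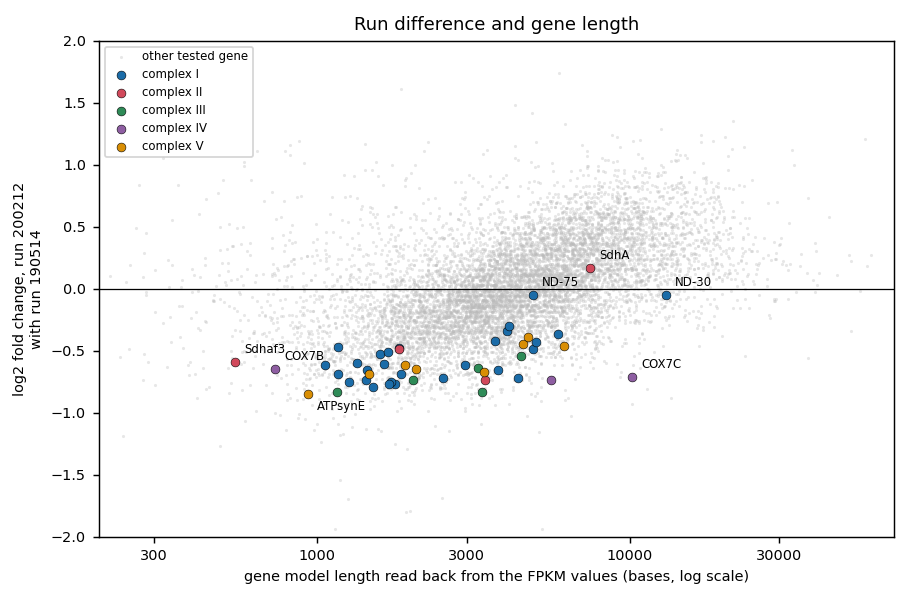
Log2 fold change of run 200212 with run 190514 against the gene model length in bases (log scale), with the 48 members coloured by complex and the other tested genes in grey. Most members lie below the bulk of the genes of their own length: COX7C is at -0.71 at 10163 bases, while 1515 of the 5018 tested genes of 4 kb or more are below 0.

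Other gene groups were lower in run 200212 too. Of 58 cytosolic ribosomal protein genes 56 were lower in run 200212 (median -0.73), of 30 proteasome genes 28 (median -0.49) and of 70 mitochondrial ribosomal protein genes 51, with 1 higher (median -0.39). Among pathway genes outside the rule, 8 of 9 further subunits and electron carriers were lower and 1 higher. The lower ones included cype and ox, small subunits of complexes IV and III (-0.86 and -0.81), RFeSP, the Rieske iron-sulphur protein of complex III (-0.73), and blw, the alpha subunit of ATP synthase (-0.36). Etf-QO, which feeds electrons from fatty acid oxidation into ubiquinone, was the 1 higher (0.28 ± 0.10, limma adjusted p = 0.0297). Of 12 tricarboxylic acid cycle genes 9 were lower and 1 higher, and of 9 import and carrier genes 6 were lower and 0 higher, against 25.3% lower and 25.6% higher over all tested genes. Of 8 assembly factors 3 were lower (37.5%) and 0 higher, and 1 was lower with the length trend removed, with values rescaled to a common sum, or without 20E replicate 6 and JH3 replicate 1.

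Cell type markers were called in both directions. Of 16 neuronal genes 4 were higher in run 200212 (25.0%) and 0 lower, of 8 glial genes 3 were higher and 4 lower (50.0%), and of 10 muscle genes 1 was higher and 0 lower, where 25.6% of all tested genes were higher and 25.3% lower. The neuronal count depended on the scaling: it was 2 higher and 2 lower with scaling to total reads, and 0 higher and 9 lower with the length trend removed, where all 16 values were below 0 (median -0.25). The summed level of the neuronal genes was 1010 to 1760 FPKM in run 200212 and 961 to 1400 FPKM in run 190514. Muscle, a tissue rich in mitochondria, was most visible in JH3 replicates 4 and 3, whose muscle genes lay 1.85 and 1.32 above their mean of 19 libraries on the log2 scale. The members lay at -0.16 in JH3 replicate 4, the highest of the 4 JH3 libraries of run 200212, which began at -0.30. In JH3 replicate 3 they lay at 0.23, the lowest of the 3 JH3 libraries of run 190514, which reached 0.67. The part of muscle in the members' values was not tested.

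Within the runs the members moved together from brain to brain. After the mean of each group and run was taken off, the correlation of a member with the median of the other members over 19 libraries had a median of 0.74 and a range of -0.37 to 0.97, as a description of genes that share libraries and scaling. It was over 0.5 for 37 of 48 members. The same correlation with the members' median had a median of -0.02 over the other 9333 tested genes, and of 0.78 over the 58 cytosolic ribosomal protein genes. Without 20E replicate 6 and JH3 replicate 1 the median was 0.71 for members and 0.03 for the other genes. SdhA went against the rest in both cases, at -0.37 and -0.27, and ND-75 stood at -0.04 and 0.34.

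**Figure D5:**
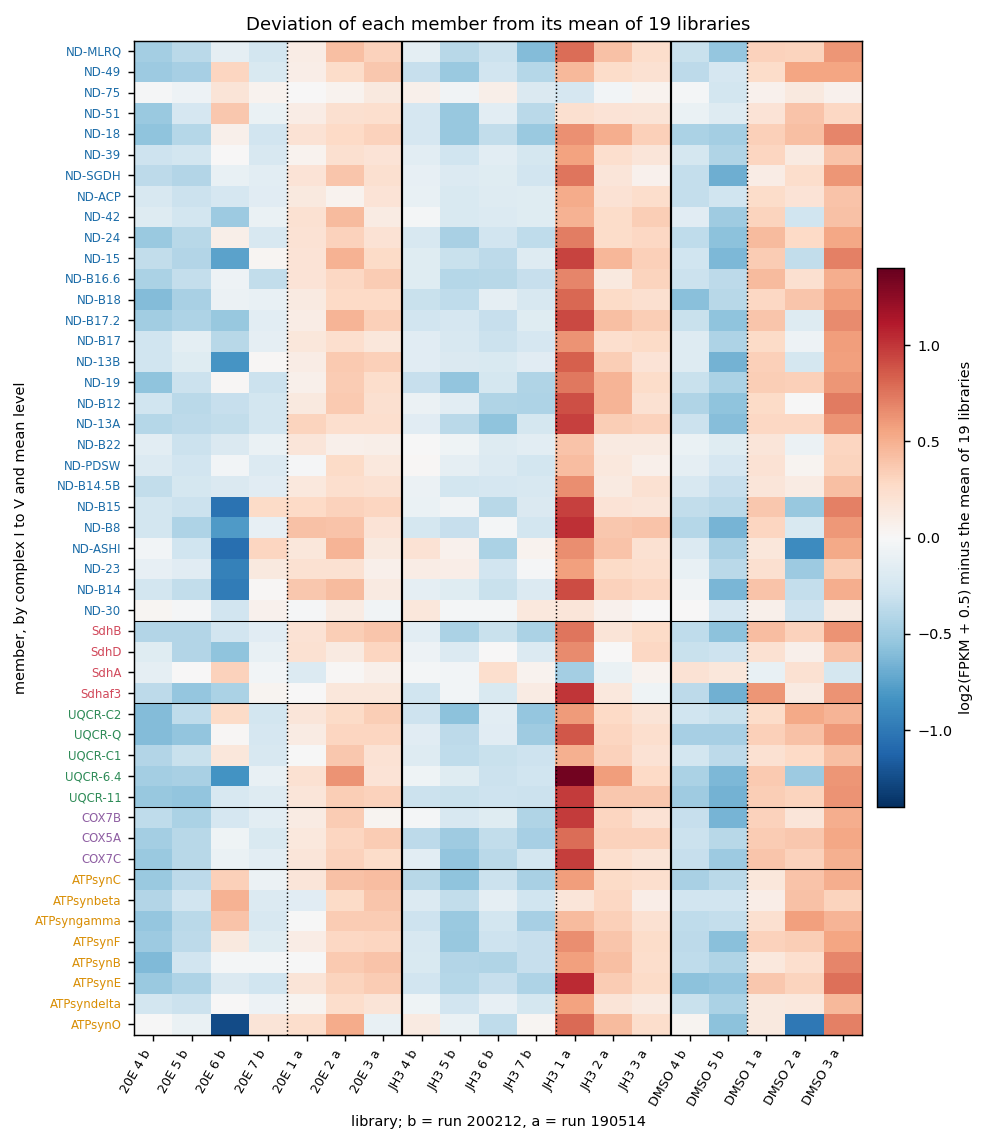
Deviation of log2(FPKM + 0.5) of each of the 48 members (rows, by complex and mean level) from its mean of 19 libraries, with 20E, JH3 and DMSO libraries from left to right and, within a group, run 200212 (b) left of run 190514 (a). Red is higher and blue lower. Run 190514 is red almost throughout, JH3 replicate 1 is the darkest column, and 20E replicate 6 and DMSO replicate 2 share a set of blue rows.

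Single brains carried much of the spread. JH3 replicate 1 was the highest of all 19 libraries for 40 of 48 members, with a median deviation of 0.67, and the lowest for SdhA. Its median deviation was 0.93 for cytosolic ribosomal protein genes, 0.53 for mitochondrial ribosomal protein genes and -0.62 for glial genes. Next came DMSO replicate 3, at 0.54. At the low end, DMSO replicate 5 was the lowest library for 14 members, with a median deviation of -0.44, and 20E replicates 4 and 6 were the lowest for 11 each.

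20E replicate 6 did not move as 1 block. It was the lowest library for ATPsynO, UQCR-6.4, SdhD and 8 complex I genes, ND-13B, ND-15, ND-23, ND-42, ND-ASHI, ND-B14, ND-B15 and ND-B8, with a median deviation of -0.84. It was the highest for ATPsynbeta, ND-75 and SdhA, with a median deviation of 0.32. The authors' depth of this library was 0.774 times its total reads, against 0.911 to 1.14 in the others, which raises its FPKM values. For ATPsynbeta, ND-75 and SdhA it had 249, 79.1 and 13.4 FPKM. 20E replicate 3, whose depth was 1.017 times its total reads, had 233, 77.0 and 11.1 FPKM. On total reads 20E replicate 6 lies below 20E replicate 3 for all 3 genes, so these highs hold on the deposited FPKM scale only. The level of the neuronal markers given below also depends on that scaling and was not checked on total reads. Among the 3 DMSO libraries of run 190514, replicate 2 was the lowest for all 11 of the low genes and for 20 of the 34 members in neither set. It was the highest for all 3 of the high genes and for 3 of those 34. These sets were chosen from 20E replicate 6 and carry no test. In 20E replicate 6 ATP synthase exceeded complex I in summed FPKM, with a ratio of 1.07, against 0.756 to 0.955 in the other libraries, and the neuronal markers lay 0.62 above their mean while the mitochondrial ribosomal protein genes lay 0.63 below it (a deviation of -0.63).

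Without 20E replicate 6 and JH3 replicate 1 the hormone comparisons still called 0 members, and their medians were -0.03 in 20E with DMSO, 0.02 in JH3 with DMSO and -0.04 in 20E with JH3. The run comparison called 42 members, all of them among the 43, with a median of -0.60. The call lost was that of ND-23, whose call was also lost without JH3 replicate 1 alone and with values rescaled to a common sum.

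In the wider pathway 1 gene passed in a hormone comparison. None of 9 further subunits and carriers, 8 assembly factors, 12 tricarboxylic acid cycle genes and 9 import and carrier genes passed in any of the 3 comparisons by limma, with 2, 1, 3 and 0 results at an unadjusted p under 0.05 over the 3 comparisons. The same held for 70 mitochondrial ribosomal protein genes, with 5 such results. Over all tested genes 3.34% passed in 20E with DMSO, 0.927% in JH3 with DMSO and 5.34% in 20E with JH3. Of 7 regulators of mitochondrial genes, 1 passed: Ets97D, an ETS factor gene whose mammalian homologue activates nuclear genes of the respiratory chain. It had 3.81 to 5.05 FPKM in 20E brains, with a median of 4.73, and 6.63 to 7.66 FPKM in JH3 brains, with a median of 7.24, against 7.48 to 8.91 FPKM in DMSO brains, with a median of 7.69. Its 20E libraries lay below all others, and the log2 fold change was -0.77 ± 0.08 in 20E with DMSO and -0.63 ± 0.07 in 20E with JH3 (limma adjusted p = 3.38e-06 and 5.74e-06). JH3 with DMSO gave -0.13 ± 0.08 (adjusted p = 0.648). The members themselves had a median of 0.01 in the same 20E with DMSO comparison.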

How the data were processed

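Strand-specific poly(A) RNA libraries were made from single central brains, per the labels' protocols. The authors deposited 1 table of FPKM values for 19 libraries; STAR, featureCounts, bcl2fastq and DESeq2 are listed per the submitters' processing notes, while their versions and the build are not stated there. Whole reads and gene lengths were read back from the FPKM steps: all 19 values lay within 0.02 of whole reads for 13216 genes, 784 were at 0 throughout and 1 could not be fitted. The authors' depth was 0.774 to 1.14 times the total reads read back. Gene symbols were looked up in RefSeq's table for assembly Hsal_v8.6 (names only), which matched 13988 of 14001 identifiers.

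Genes with 1 FPKM in at least 5 libraries were fitted as log2(FPKM + 0.5) with limma 3.58.1 in R 4.3.3, with group and run label as terms, a trended prior variance and two-sided Benjamini-Hochberg adjustment over 9381 genes (threshold 0.05). Fold changes are on that scale. The fit was tested on counts simulated with the same relative spread for every gene, without a run difference or a library that stands apart. That test does not show how the fit behaves where runs and libraries differ as they do here. Nothing in the sample labels used here pairs same-numbered libraries, so the number was not a term. The series text calls the libraries biological replicates.

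Members and lists were chosen with earlier results of these data known. Named with values are the highest and lowest member of each complex, the 5 largest differences of each hormone comparison, the 5 largest falls and the 5 highest values of the run comparison, and the 3 widest and 3 narrowest spreads. Other genes named were chosen after their values were seen. Python 3.11.15 was used with pandas 2.3.3, numpy 2.4.6, scipy 1.17.1 and, for figures, matplotlib 3.10.9.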

Additional observations from a re-analysis of the deposited data

Results flagged for a closer look

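In 28 series of values (23 named members and the 5 complex sums), the highest or lowest library of each hormone group was set against the range of its group by Dixon's criterion. Of 84 groups, 10 held a library far from the others, where chance gives about 1 in 20 for independent groups from 1 source. These groups reuse the same 19 libraries and each mixes both runs, so the share cannot be read against that rate. JH3 replicate 1 accounts for 9 of them, all on the high side. It had 48.5 FPKM for UQCR-6.4, 19.4 FPKM for ND-B8, 14.6 FPKM for Sdhaf3, 78.7 FPKM for ATPsynE and 16.4 FPKM for UQCR-11. The next JH3 libraries had 28.5, 12.4, 7.85, 48.5 and 10.6 FPKM. The same library had 216 FPKM for COX7B, 22.9 FPKM for COX7C and 20.4 FPKM for ND-B15, where the next JH3 libraries had 135, 13.6 and 11.8 FPKM, and 281.5 FPKM for the sum of complex IV, where the next had 179.6 FPKM. The remaining one is the low value of 2.91 FPKM for ND-23 in 20E replicate 6, where the next 20E library had 5.38 FPKM. The causes were not tested.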

How the results depend on the processing

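The 3 hormone comparisons called 0 members under all 34 alternatives of each. Leaving out 1 library moved their medians over members between -0.03 and 0.05 (20E with DMSO), 0.01 and 0.13 (JH3 with DMSO), and -0.11 and -0.02 (20E with JH3); other settings gave -0.10 to 0.11, -0.01 to 0.13 and -0.18 to -0.02. The run comparison called 42 to 46 members and had a median of -0.75 to -0.47 over its 30 alternatives, with 42 to 46 and -0.67 to -0.59 when 1 library was left out. The value of -0.47, with the length trend removed, moved by more than 0.14, the SD of the members' median between libraries of the same group and run. The run call of ND-23 was lost without JH3 replicate 1 and with values rescaled to a common sum. Without DMSO replicate 2 SdhA passed as higher (0.20, limma adjusted p = 0.0473). ND-ASHI and ATPsynO, whose run results are not among the 25 below, passed as lower without DMSO replicate 2 or 4 and with the length trend removed. ND-ASHI also passed without 20E replicate 7, with library weights, with 1 added to each FPKM, with 1 FPKM required in all libraries, and with scaling to total reads.

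Of 25 results for single members, 799 of 810 alternatives kept direction and call, 2 gained a call (SdhA above, and ND-30 with the length trend removed) and 9 turned direction, none of them called. In 20E with DMSO these were ND-ASHI (-0.01), ATPsynO (-0.11) and UQCR-6.4 (-0.04) without DMSO replicate 2 (with any 1 library left out their ranges were -0.01 to 0.33, -0.11 to 0.30 and -0.04 to 0.24), ATPsynO within run 200212 (-0.02), ATPsynC within run 190514 (-0.02), and UQCR-6.4 (-0.003) and ND-B8 (-0.02) with no run term. The others were ATPsynO in 20E with JH3 without 20E replicate 6 and JH3 replicate 1, an alternative added after the data were seen (0.01), and SdhA between runs with the length trend removed (-0.04).

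With the replicate number as a block in place of the run, 0 members were called in each hormone comparison, with medians of -0.02, 0.07 and -0.08. Deviations of same-numbered libraries from the mean of their group and run correlated at -0.378 to 0.496. Those means rest on 2 to 4 libraries, and libraries with different numbers were not compared. The correlations therefore cannot decide whether the numbers mark pairs. Depth limits Sdhaf3 most, with 38 reads in its thinnest library, and groups of 5 to 7 brains leave intervals with a median half-width of 0.22 to 0.25 (log2).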

Other observations

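Of 5 genes of the chain that the rule misses by spelling, 2 were lower in run 200212, where 25.3% of all tested genes were lower. Ndufb2, an accessory subunit of complex I, had a log2 fold change of -0.62 ± 0.14 (SE, limma adjusted p = 0.00106), and Cox17, a copper chaperone of complex IV, had -0.55 ± 0.10 (adjusted p = 0.000227). Cox10 and Cox11, assembly factors of complex IV, did not pass (-0.04 ± 0.06 and -0.17 ± 0.14, adjusted p = 0.595 and 0.344), and neither did NdufV3, a small subunit of complex I (0.02 ± 0.27, adjusted p = 0.960). None of these 5 genes was called by limma in a hormone comparison, where their adjusted p-values ran from 0.369 to 0.999.

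Of 7 regulators of mitochondrial genes, ewg and tam were higher in run 200212 and mtTFB1 was lower, where 25.6% of all tested genes were higher and 25.3% lower. The gene ewg, whose mammalian homologue is a regulator of nuclear respiratory genes, had 19.1 to 24.1 FPKM in run 200212 and 14.7 to 17.6 FPKM in run 190514 (0.42 ± 0.05, limma adjusted p = 6.95e-06). The runs did not overlap. The gene tam, which encodes the catalytic subunit of the mitochondrial DNA polymerase, had 6.55 to 9.45 FPKM in run 200212 and 3.19 to 7.26 FPKM in run 190514 (0.45 ± 0.12, adjusted p = 0.00396). The gene mtTFB1, which encodes a mitochondrial transcription factor B homologue, was counted over 1780 bases and stood at -0.35 ± 0.06 (adjusted p = 0.000199). Both ewg and tam were counted over longer models than most members, 7428 and 3860 bases. With the length trend removed, 2 of the 7 regulators were higher in run 200212 and 0 lower. With scaling to total reads, 1 of the 7 regulators was higher in run 200212 and 1 lower.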
